A study of Mus musculus with 7 samples.

Results

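CTCF sites next to protein-coding genes were examined by ChIP-exo 5.0, in which a lambda exonuclease trims immunoprecipitated DNA up to the crosslinked protein, so that the 5′ end of a sequencing tag marks the stop on each strand. The sites were chosen by their measured tags in the library of 2,700,000 liver cells, called the deep library here. A site is a pair made of a peak on the + strand and a peak on the - strand 10 to 80 bp downstream of it. Members were the autosomal pairs with 20 to 99 summed tags whose centre lay within 500 bp of the start or the end of a protein-coding gene. This gave 1847 members, called gene-end pairs here, of 34801 autosomal pairs of 20 to 99 tags (5.31%) and of 151679 autosomal pairs of any size. The remaining 32954 pairs of 20 to 99 tags are called the other pairs. Members that lay within 100 bp of each other were chained into 1171 loci, of which 741 held 1 member and the fullest held 6, so neighbouring members often share tags and are not replicates of each other.

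The libraries came from wildtype adult male mice. Brain, lung, kidney and whole liver gave 1 library apiece, and 3 further libraries came from 2,700,000, 270,000 and 27,000 liver cells. Cell numbers of the titration were estimated by the authors from wet weight. The antibody in the labels was against CTCF in every case, although the extraction text mentions IgG, and the labels and the study's methods give different formaldehyde concentrations. The organ libraries held 527038 to 1635582 listed tags, the library of 2,700,000 cells 6592538 and that of 27,000 cells 35594. Peaks whose tags all stopped at 1 position made up 76.3 to 91.5% of the organ peaks and 33.1% of the peaks of the library of 2,700,000 cells. With 1 library per condition, differences between organs could not be set against replicate spread, and no p-values were computed. In whole organs, binding in fewer cells and weaker binding per cell cannot be told apart.

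CTCF is a zinc finger protein that binds a long GC-rich motif and, together with the ring-shaped cohesin complex, anchors chromatin loops and marks the borders of chromatin domains. Its motif is not symmetric, so each bound site has a direction. CTCF sites occur between genes, inside genes and at promoters, and many are occupied in most tissues of an animal.

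The stretches between the 2 stops are shown first for a selection of members, from those that ranked highest over the organs and those at genes of the basic cell machinery. All lie just upstream of a gene start, outside every annotated gene, and are written 5′ to 3′ on the + strand of GRCm38.p6 (RefSeq promoter sequences) with 5 bases added beyond each stop. Capitals mark AGGNGGC, the centre of the CTCF motif, where N is any base. Sequences without capitals hold no match on either strand. Not printed are stretches of best-ranked members at Hjurp and further ones at Sh3glb1 and Sh3gl1, which hold no match either.
Sh3glb1, chr3:144720503-144720567: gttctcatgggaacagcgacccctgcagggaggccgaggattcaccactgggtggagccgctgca
Sh3gl1, chr17:56036749-56036818: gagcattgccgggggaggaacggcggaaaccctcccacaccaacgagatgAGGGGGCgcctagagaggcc
Rapgef1, chr2:29619650-29619715: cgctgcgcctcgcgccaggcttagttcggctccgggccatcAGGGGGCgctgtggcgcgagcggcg
Med4, chr14:73509876-73509962: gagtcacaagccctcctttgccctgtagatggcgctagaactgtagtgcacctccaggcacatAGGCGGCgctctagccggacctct
Rpl5, chr5:107900455-107900489: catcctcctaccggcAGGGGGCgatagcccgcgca
Polr2j, chr5:136116584-136116643: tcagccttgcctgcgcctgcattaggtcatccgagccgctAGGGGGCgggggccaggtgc
Ndufb7, chr8:83566648-83566688: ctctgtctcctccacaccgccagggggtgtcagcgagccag
Psmd6, chr14:14121005-14121036: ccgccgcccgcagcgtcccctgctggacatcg

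Gene-end pairs were densest just upstream of gene starts. Strand was known for 16457 of the 20665 genes, which placed 973 members nearest to a gene start and 524 nearest to a gene end, while 350 were nearest to a gene whose strand was not given. Of those nearest to a start, 735 lay upstream and 564 of them within 200 bp of the start. Pairs of 20 to 99 tags numbered 20.4 per 1000 genes in the 100 bp upstream of a start and 15.1 in the next 100 bp. The first 100 bp downstream held 5.65, and the following 100 bp held 2.31. Gene ends had no such peak: the last 100 bp inside genes held 1.88 pairs per 1000 genes, and the highest value near them was 5.16, at 200 to 299 bp beyond the end. Of the members nearest to an end, 210 lay inside the gene and 314 beyond it.

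**Figure D1:**
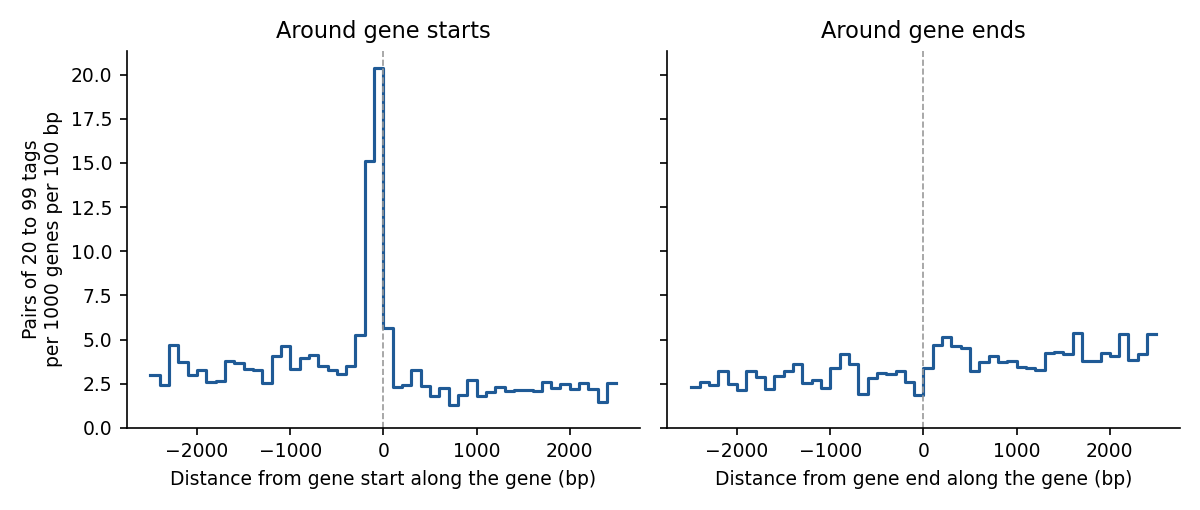
Pairs of 20 to 99 tags of the library of 2,700,000 liver cells per 1000 genes (vertical axis) in bins of 100 bp along the gene (horizontal axis), around gene starts on the left and gene ends on the right, for the 16457 genes of known strand. The bins within 200 bp upstream of starts stand at 15.1 and 20.4, above all bins around gene ends.

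The thresholds cut through a continuous range. There were 160 gene-end pairs of 19 tags and 140 of 20 tags, 3 of 99 tags and 3 of 100 tags, and 48 pairs lay at 481 to 500 bp from a gene against 49 at 501 to 520 bp. Brain tags were found at 86.2% of the pairs of 19 tags and 90% of those of 20 tags, and at 87.5% of the pairs just inside the distance limit and 79.6% of those just outside it. The members and the other pairs had much the same strength in the library that chose them, with medians of 29 and 30 tags, 112 and 121 tags in the surrounding 200 bp, and 47 and 45 bp between the stops. The stronger strand held a median of 70% of a member's tags and 70.7% of those of an other pair.

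Gene-end pairs held tags in each organ more often than other pairs did. A pair was called with tags where the 200 bp around its centre held listed peaks of that library. Brain held tags at 1635 of the 1847 members (88.5%, 95% Wilson interval 87 to 89.9%), against 70.9% of all autosomal pairs of 20 to 99 tags and 4.17% of the members' windows moved by 5 kb. Lung held tags at 1451 members (78.6%), against 58.2% of all pairs and 2.38% of moved windows. Kidney held tags at 1262 members (68.3%), against 51.1% of all pairs and 4.93% of moved windows. The liver organ library, which was the shallowest of the organs, held tags at 911 members (49.3%), against 34.1% of all pairs and 1.89% of moved windows. All 4 organs held tags at 619 members (33.5%, interval 31.4 to 35.7%), against 17.7% of all pairs and 0.271% of moved windows. With at least 5 tags required in each organ this share was 7.96%, and without peaks of 1 position it was 17%. At 89 members (4.82%) no organ held tags, against 15.7% of the other pairs.

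Set against the other pairs, the members' share was higher by 18.6 percentage points in brain (95% Newcombe interval 17 to 20.1), 21.5 in lung (19.5 to 23.4), 16.1 in liver (13.7 to 18.4) and 18.2 in kidney (16 to 20.4). With at least 5 tags required, the members' share was 44.5% in kidney, 12.1% in liver and 46.5% in the library of 270,000 cells, and the difference in liver was 3.9 points. Without peaks of 1 position the share in kidney was 44%. For all 4 organs together the difference was 16.7 points (14.6 to 18.9), which became 4.16 points with at least 5 tags required and 9.74 points without peaks of 1 position. These intervals treat pairs as independent, and neighbouring members are not. With 1 pair per locus the share in all 4 organs was 29.4% of 1171 gene-end loci and 12.7% of 21448 other loci. None of the members lay in the 23 bins of 10 kb that held at least 20 peaks in each of 6 libraries, whereas 437 other pairs did.

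In the titration, the library of 270,000 liver cells held tags at 1367 members (74%), against 62.2% of all pairs, which left members 12.4 points above the other pairs (10.3 to 14.4). The library of 27,000 cells held tags at 54 members (2.92%), against 3.23% of all pairs. The members' share differed from that of the other pairs by -0.326 points (-1.03 to 0.565).

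The difference was larger at gene starts than at gene ends. Members nearest to a start held tags in all 4 organs in 42.4% of cases (413 of 973, interval 39.4 to 45.6%), and members nearest to an end in 19.8% (104 of 524, interval 16.7 to 23.5%), a difference of 22.6 points (17.8 to 27.1). In single organs, starts were above ends by 11.1 points in brain (7.52 to 15), 14 in lung (9.58 to 18.6), 20.6 in liver (15.4 to 25.7) and 23 in kidney (18 to 28). Members nearest to an end were still above the other pairs by 11.6 points in brain (7.99 to 14.7) and 13.2 in lung (9.13 to 17). For kidney (4.1 points, -0.217 to 8.35), liver (3.59 points, -0.467 to 7.83) and all 4 organs (3.05 points, -0.165 to 6.7) the interval of that difference included 0. Starts were not stronger than ends in the library that chose them, where the surrounding 200 bp held a median of 110 tags at starts and 122 at ends.

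**Figure D2:**
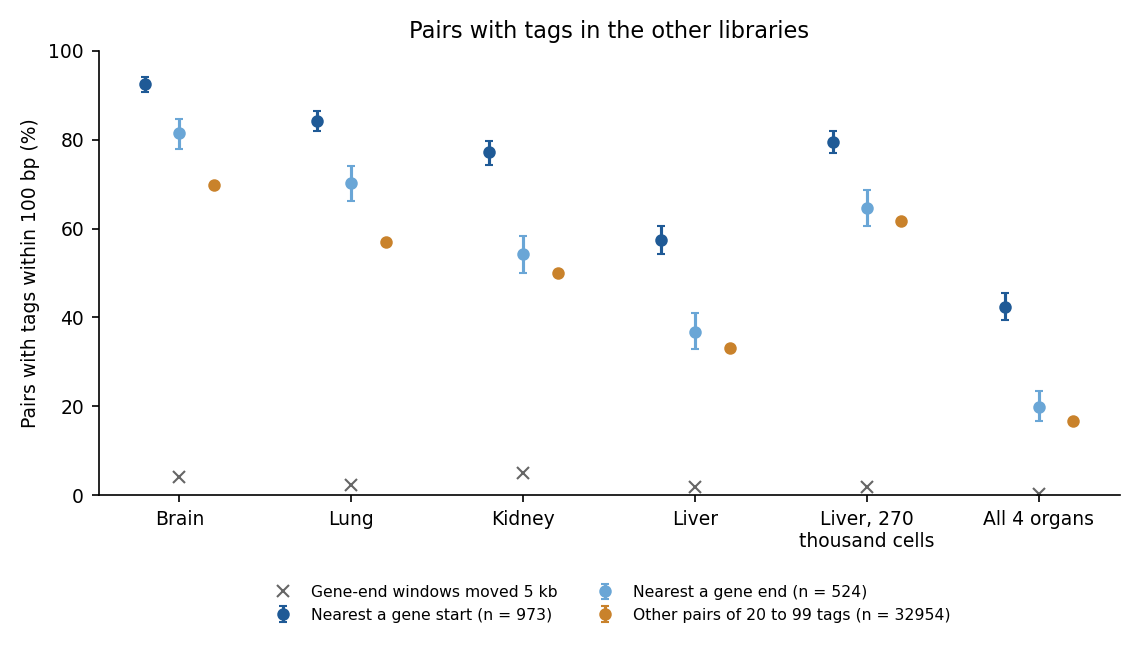
Share of pairs with tags within 100 bp of their centre (vertical axis, %) in each organ, in the library of 270,000 liver cells and in all 4 organs together (horizontal axis), for members nearest to a gene start, members nearest to a gene end and other pairs. Bars are 95% Wilson intervals of the counts and crosses are the members' windows moved by 5 kb. Gene starts stand highest in every column (42.4% against 19.8% for ends in all 4 organs), and moved windows stay below 5%.

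Distance and neighbouring genes were looked at within the starts. Within 200 bp of a start, 46.3% of 691 members held tags in all 4 organs, against 33% of 282 members farther away. Members upstream (43.4%) and downstream of a start (39.5%) had overlapping intervals of 39.9 to 47% and 33.5 to 45.8%. All 53 members near 2 gene starts, both within 500 bp, held tags in brain, and 22 of them (41.5%) held tags in all 4 organs. Of 35 members near 2 gene ends, 6 (17.1%) did so. Gene starts with no pair within 500 bp held tags far less often, at 4.44% of 14621 in brain, 2.37% in lung, 1.81% in liver and 5.89% in kidney.

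Tag levels were compared too. The median member held 10 tags in brain (quartiles 5 and 16.5), 10 in lung (2 and 19), 4 in kidney (0 and 8) and 0 in liver (0 and 3), and the median other pair held 5, 3, 2 and 0 tags. The means were higher at members in brain (12 against 8.28) and lung (12.8 against 7.44) and lower in kidney (5.22 against 5.4), liver (1.84 against 2.77) and the library of 270,000 cells (5.53 against 6.29). The largest value of a single member was 34 tags in kidney and 23 in liver, whereas single other pairs reached 1021 and 781. Scaled to 1,000,000 listed tags, the median member held 9.68 in brain, 14.5 in lung, 0 in liver and 2.45 in kidney. Lung was thus above brain on this scale although both had the same median count. Members nearest to a start held a median of 12 tags in brain and 11 in lung, and members nearest to an end 7 and 6. Windows of members took 1.98% of all listed tags in lung, 1.24% in brain, 0.37% in liver and 0.343% in kidney, each listed peak being counted once.

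The difference in shares was seen in each range of pair tags. Among pairs of 20 to 39 tags, members were above other pairs by 19.4 points in brain and 17.2 in liver, and among pairs of 80 to 99 tags by 18.5 points in brain (10.3 to 22.8) and 6.48 in liver (-4.6 to 17.9). Only this last interval included 0 over the 4 organs and 4 ranges of pair tags. By the tags of the surrounding 200 bp in the deep library, it was smallest in the fullest windows. In windows of 20 to 79 tags members were above other pairs by 28.6 points in brain and 31.2 in lung, and in windows of 180 tags or more by 9.16 (6.78 to 10.7) and 11.7 (7.51 to 15.2). For all 4 organs the difference was 14.5, 23.6 and 23.2 points in the first 3 ranges of window tags and 5.85 (1.07 to 10.9) in the last, and for liver it was 18.8, 20.6, 19.8 and 5.88. In these fullest windows the library of 270,000 cells no longer separated them (1.42 points, -1.97 to 4.02).

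The CTCF motif was found near the centre of many members. Promoter sequence, from 250 bases before to 50 after a gene start, covered the centre of 562 members. AGGNGGC, searched on both strands, lay within 40 bp of the centre of 256 of them (45.6%, interval 41.5 to 49.7%), against 9.94% of all positions tiled over the promoters. The longer form, AGGNGGC with CC ending 3 bases before it, lay there in 152 (27%), against 1.08% of tiled positions. AGANGGC, a form that differs at the third base, lay there in 118 (21%), against 6.41%. Counted per promoter, AGGNGGC was present in 66.8% of 349 protein-coding promoters that held a member and in 33.8% of 20057 in all, and the longer form in 36.4% and 4.21%.

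The motif share rose with the tags of the pair. Within promoter sequence, AGGNGGC lay near 25.6% of 1482 pairs of 4 to 19 tags, 39.6% of 391 pairs of 20 to 39 tags, 59.4% of 101 pairs of 40 to 59 tags and 58.6% of 70 pairs of 60 to 99 tags. Among 36 pairs of 100 tags or more it lay near 72.2% (56 to 84.2%). Members with and without AGGNGGC were found about as often in the organs: all 4 organs held tags at 45.7% of 256 members with it and at 52.6% of 306 without it, a difference of -6.91 points (-15.1 to 1.38). The intervals of the difference included 0 in each single organ too.

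The motif had a preferred direction relative to the gene. Of 175 AGGNGGC matches near members at gene starts, 125 (71.4%, 64.3 to 77.6%) read in the direction of transcription and 50 against it. Over all protein-coding promoters, 55.3% of 9064 matches (54.2 to 56.3%) did so. At Sh3gl1, printed above, the gene lies on the - strand and the match reads against it, while at Rapgef1, Med4, Rpl5 and Polr2j the match reads along the gene.

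Other promoter motifs gave a mixed picture. CCGGAAG, the form bound by ETS factors, stood in 22.1% of the 349 member promoters (18 to 26.7%) and in 11.9% of all protein-coding promoters. TATAAA, the TATA box, stood in 7.16% (4.9 to 10.4%) against 12.7%, and CCAAT in 31.5% (26.9 to 36.6%) against 38.1%. GGGCGGG, the form bound by Sp1, stood in 33.8% against 34.5%, CACGTG, the E-box, in 8.6% against 7.89%, and TGACGTC in 4.01% against 3.92%. Promoters with a member had a median GC content of 59.7% and 21 CpG, against 57% and 14 over all protein-coding promoters.

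Stops around the longer motif had a defined shape on 1 side. Around 114 matches near members, positions were counted from the first base of AGGNGGC along the motif. Peaks on the other strand were concentrated 15 to 19 bp downstream, with 61 of 548 peaks and 2377 of 8227 tags of the library of 2,700,000 cells in that bin of 5 bp. Peaks on the motif's own strand were spread mostly over the upstream side, and their fullest bin, 25 to 21 bp upstream, held 37 of 528 peaks. Their bin 10 to 14 bp downstream held 29 peaks, of fewer tags (156). The organs showed fewer stops there. In brain the fullest bins were 20 to 24 bp downstream on the other strand, with 19 of 211 peaks, and 35 to 31 bp upstream on the motif's strand, with 20 of 193. Other-strand peaks also gathered upstream, in the deep library as well as in the organs. The bin 15 to 11 bp upstream held 26 of 548 in the deep library, 16 of 211 in brain and 13 of 146 in lung. In lung the fullest bin, 25 to 29 bp downstream, held 14.

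**Figure D3:**
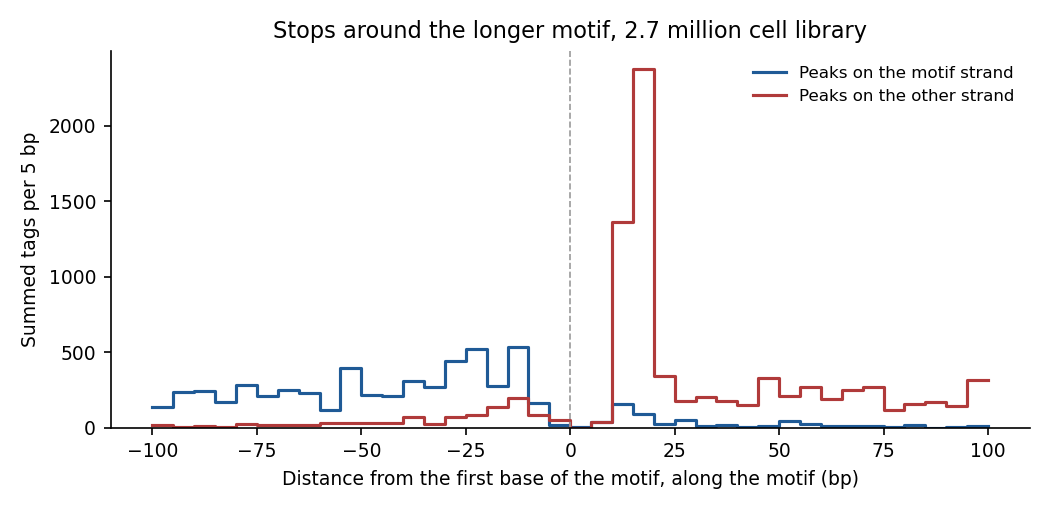
Summed tags of peaks in bins of 5 bp (vertical axis) by distance along the motif from the first base of AGGNGGC (horizontal axis), around 114 longer matches near members, in the library of 2,700,000 liver cells. Peaks on the strand opposite to the motif reach 2377 tags at 15 to 19 bp. Peaks on the motif's own strand are spread mostly upstream, with at most 533 tags per bin.

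Members that ranked highest over the 4 organs fell at 4 genes. In what follows, tags in the deep library are those of the pair itself, whereas tags in the other libraries are those within 100 bp of its centre, and neither is scaled for depth unless stated. Sh3glb1, which encodes the membrane-bending protein endophilin B1, had 4 of the 10 best members, all in 1 locus. Its leading pair, centred 127 bp upstream of the start, had 85 tags in the deep library, 68 in brain, 66 in lung, 34 in kidney, 14 in liver, 21 in the library of 270,000 cells and 0 in that of 27,000. Sh3gl1, which encodes the related endocytic protein endophilin A2, had 2 of them. Its leading pair, 124 bp upstream of the start, had 42 tags in the deep library, 60 in brain, 46 in lung, 13 in liver and 32 in kidney. Both leading pairs were above the median member in each organ, which their choice by rank over the organs made likely.

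Hjurp encodes the chaperone that delivers the centromeric histone CENP-A, and had 3 of the 10. The pair 114 bp upstream of its start had 81 tags in the deep library, 68 in brain, 77 in lung, 16 in kidney, 23 in liver, 60 in the library of 270,000 cells and 6 in that of 27,000. At the pair 32 bp upstream, which ranked higher, liver and kidney both held 18 tags. Scaled to 1,000,000 listed tags, liver was above kidney at the leading pairs of Sh3glb1 (26.6 against 20.8), Sh3gl1 (24.7 against 19.6) and Rapgef1 (17.1 against 12.2) as well. Rapgef1, which encodes a guanine nucleotide exchange factor for the small GTPase Rap1, completed the list with 63 tags in the deep library, 55 in brain, 42 in lung, 9 in liver and 20 in kidney, at 38 bp upstream of its start. Of its kidney tags only 2 came from peaks with more than 1 position.

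With 1 member counted per locus, a view added after the values were seen, the next loci were at Med4, a subunit of the Mediator complex, at Dhx8, a helicase of the spliceosome, at Gpr61, an orphan G protein-coupled receptor, and at the predicted genes Gm13285, Gm13290 and Gm13289 on chromosome 4. Med4 had 42 tags in brain, 54 in lung, 6 in liver and 27 in kidney. Dhx8 had 45, 45, 7 and 18 in the same order. At the 3 predicted genes brain held 36 to 47 tags, lung 55 to 60, kidney 16 to 20 and liver 6. Gpr61 had 53 tags in brain, 33 in lung, 8 in liver and 21 in kidney. By unscaled count, lung was at or above brain at Med4, Dhx8 and the 3 predicted genes and below it at Gpr61.

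**Figure D4:**
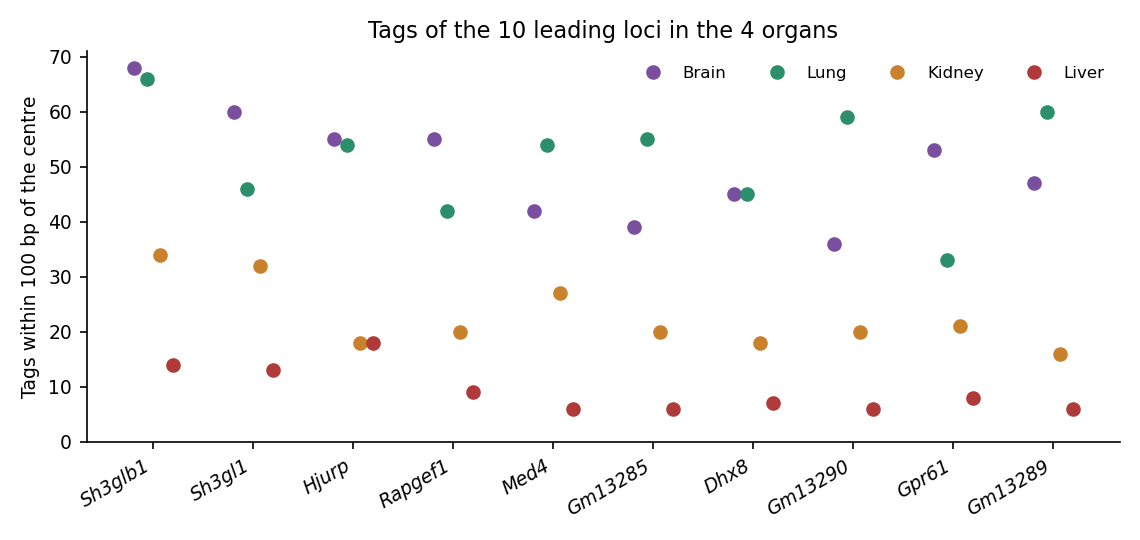
Tags within 100 bp of the centre (vertical axis) in each organ, 1 point per library, for the leading member of the 10 loci that ranked best over the organs (horizontal axis). Counts are not scaled for depth. Brain and lung lie above kidney and liver at all 10, and Sh3glb1 reaches 68 tags in brain and 66 in lung.

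Genes of several large complexes were counted by whether they had a member. Over all protein-coding genes, 1202 of 20665 (5.82%) had one within 500 bp. Complex I is the first enzyme of the respiratory chain. Among genes listed by symbol as its subunits and assembly factors, Ndufa4l2 included, 10 of 47 did (21.3%, interval 12 to 34.9%). Among RNA polymerase subunits 5 of 28 did (17.9%, 7.88 to 35.6%). Cytosolic ribosomal proteins had 12 of 84 (14.3%, 8.37 to 23.3%). The intervals for mitochondrial ribosomal proteins (8 of 78), proteasome subunits and assembly factors (5 of 49), Mediator subunits (3 of 28) and translation initiation factors (3 of 53) included the value of all genes. The lists were described by counts only, and no test of a list was run.

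Sharing of members among organs was counted by list, from few members and without intervals. All 4 organs held tags at 9 of 22 members of the cytosolic ribosomal list, 2 of 14 of the mitochondrial ribosomal list and 1 of 5 of the initiation factor list, against 33.5% of all members. These members lie at 12, 8 and 3 genes. Of the 19 members at complex I genes, brain held tags at 18, lung at 16, kidney at 16 and liver at 17, and all 4 organs at 13. Ndufb7, a structural subunit, had 80 tags in the deep library, 21 in brain, 48 in lung, 4 in liver and 7 in kidney. Ndufc1, another small subunit, had 4 members in 1 stretch, the strongest with 66 tags in the deep library, 26 in brain, 27 in lung, 2 in liver and 15 in kidney. Ndufa3 had 31 tags in the deep library, 2 in liver and none listed in brain, lung or kidney.

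Rpl5, a protein of the large ribosomal subunit, had 99 tags in the deep library, 19 in brain, 27 in lung, 0 in liver and 9 in kidney. Rpl26, of the same subunit, had 94 tags in the deep library, 31 in brain, 47 in lung, 12 in liver and 8 in kidney. Both followed the general order of brain and lung above kidney, but they differed in liver. Polr2j, a subunit of RNA polymerase II, had 97 tags in the deep library, 18 in brain, 46 in lung, 2 in liver and 8 in kidney. Psmd6, of the proteasome's regulatory particle, had 80, 39, 11, 17 and 3 tags in the deep library, brain, lung, kidney and liver. Kidney was thus above lung by count, while per 1,000,000 listed tags lung (15.9) was above kidney (10.4). Without peaks whose tags all stopped at the same position, Psmd6 kept 14 tags in kidney and 0 in lung. Kidney was then above lung on this scale too. Med4 held the most tags of the Mediator list, with 73 in the deep library, and its organ values are given above.

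Eif3f, a subunit of a translation initiation complex, had 90 tags in the deep library, 11 in brain, 50 in lung, 0 in liver and 5 in kidney. Mrpl22, a mitochondrial ribosomal protein, had 92 tags at 187 bp beyond its end, with 7 in brain, 13 in lung, 0 in liver and 4 in kidney. Liver held tags at 2 of the 14 members of the mitochondrial ribosomal list, against 14 in brain, 14 in lung and 11 in kidney. These 14 members lie at 8 genes, and over all members the shares were 49.3% in liver, 88.5% in brain, 78.6% in lung and 68.3% in kidney.

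The clustered protocadherins, neuronal cell adhesion genes whose alternative promoters are known CTCF targets, went another way. They had the highest share of genes with a member, 15 of 57 (26.3%, 16.6 to 39%), but organ tags were sparse. Brain held tags at 5 of these 15 members, lung at 3, kidney at 4 and liver at 2, and all 4 organs at 1. Over all members the shares were 88.5% in brain, 78.6% in lung, 68.3% in kidney, 49.3% in liver and 33.5% in all 4 organs. Pcdhgb7 had 78 tags in the deep library, 13 in brain, 15 in lung, 0 in liver and 4 in kidney. Without peaks of 1 position it kept 6 tags in brain and none in lung or kidney. Pcdhgb6 was the member with tags in all 4 organs, with 38 tags in the deep library, 5 in brain, 3 in lung, 2 in liver and 4 in kidney. Pcdha3, with 41 tags in the deep library, and Pcdhb7, with 31, had none listed in any organ.

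Among large gene families, olfactory receptors and zinc finger genes had few members. The olfactory receptors had 3 of 1104 (0.272%, 0.0925 to 0.796%), and zinc finger proteins named Zfp had 12 of 388 (3.09%, 1.78 to 5.33%). Olfr1358 had 96 tags in the deep library, 24 in lung, 6 in liver and none in brain or kidney. All of its lung tags came from peaks of 1 position. Zfp398 had 58 tags in the deep library, 27 in brain, 4 in lung, 2 in liver and 13 in kidney. Histone genes had 1 of 57, H4c14, with 21 tags in the deep library, 15 in brain, 33 in lung, 2 in liver and 11 in kidney.

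Solute carriers (22 of 362, 6.08%), cytochromes P450 (5 of 99) and Hox genes (3 of 39) had intervals that included the value of all genes. Slc52a3, a riboflavin transporter, had 78 tags in the deep library, 12 in brain, 34 in lung, 4 in liver and 14 in kidney. Cyp4f18, a fatty acid hydroxylase, had 31 tags in the deep library and none listed in any organ, and Hoxc5, a patterning gene, had 38 with 3 in brain and 9 in lung. Lung held tags at 0 of the 7 cytochrome P450 members, which lie at 5 genes, and at 37 of 42 solute carrier members, against 78.6% of all members.

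**Figure D5:**
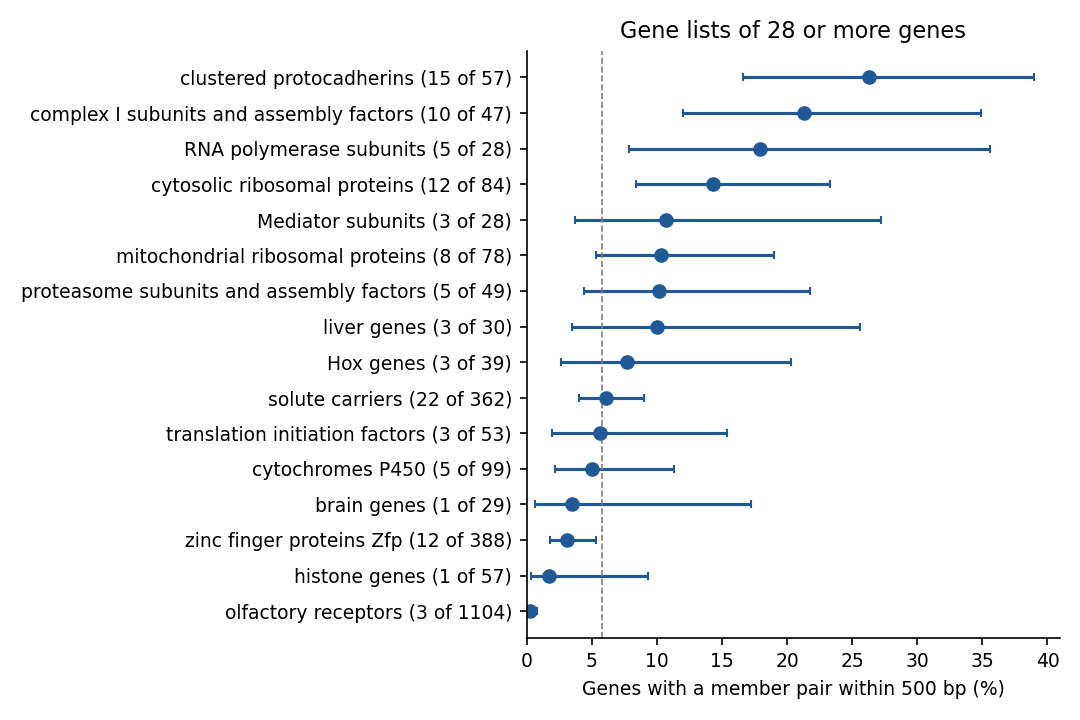
Share of genes with a member within 500 bp (horizontal axis, %) for each list of 28 or more genes (vertical axis), with 95% Wilson intervals. The dashed line is the share over all protein-coding genes, 5.82%. Clustered protocadherins (26.3%) and the complex I list (21.3%) stand highest and olfactory receptors (0.272%) lowest.

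Lists of genes that mark an organ held few members in number. Liver genes had 3 of 30, brain genes 1 of 29, lung genes 1 of 20 and kidney genes 2 of 20, with intervals that included the value of all genes. None of the 14 blood genes or the 18 imprinted genes had one, which leaves upper limits of 21.5 and 17.6%. Pck1, an enzyme of gluconeogenesis, had 46 tags in the deep library, 5 in brain, 9 in lung, 5 in liver and 3 in kidney. Gad1, which makes the neurotransmitter GABA, had 66 tags, with 7 in brain, 4 in kidney and none in lung or liver. Abca3, a lipid transporter of surfactant, had 34 tags, with 9 in brain, 8 in lung and 4 in kidney, but none in liver. Cubn, a kidney uptake receptor, had 40 tags, with 5 in kidney and none in the other organs. All of the organ tags at Gad1 and of the kidney tags at Cubn came from peaks of 1 position. Of the other members of these lists, Podxl, a podocyte surface protein on the kidney list, had 9 tags in lung and none in kidney. The 2 members at Cebpa, a liver transcription factor, each had 7 in kidney and 5 in liver, with 4 and 6 in lung. Apoe, on the liver list, had 2 each in brain, lung and liver. The organ that the list stands for thus did not regularly hold the highest count. Scaled to 1,000,000 listed tags, that organ was highest at Gad1 (brain 6.78) and Cubn (kidney 3.06), while at Pck1 liver (9.49) was below lung (13). At Abca3, lung (11.6) was above brain (8.71) on this scale. All of the lung tags at Abca3 came from peaks of 1 position, whereas 6 of its brain tags did not. Apoe, Cebpa and Podxl were not scaled.

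Genes of CTCF and cohesin function had 2 of 21, Esco1 and Smc3. Smc3, a core subunit of cohesin, had 32 tags in the deep library, 12 in brain, 16 in lung, 3 in liver and 5 in kidney, at 483 bp upstream of its start. Esco1, which acetylates Smc3, had a pair of 64 tags with 12 in brain and 41 in lung, and a pair of 22 tags with 10 in brain and 26 in lung. Both pairs lie in 1 locus, so their windows overlap. At each pair, only 10 lung tags came from peaks with more than 1 position. Kidney and liver held no listed tags at either Esco1 pair. Gapdh, a widely expressed enzyme of glycolysis whose member lies near Iffo1 as well, had 47 tags in the deep library, 4 in brain and 13 in lung, and Ercc1, a DNA repair nuclease subunit, had 27, with 8 in brain, 2 in kidney and 4 in liver.

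Some members held more tags in 1 organ than in the others, by counts scaled to the listed tags. These were chosen by that contrast, so the values are a description. Ngdn had 19 tags in brain, Dut, which encodes the enzyme that breaks down dUTP, had 18, and Rhbg, an ammonium transporter, had 16, with none listed in the other organs. In lung, a pair inside the end of Clcn2, a chloride channel gene, had 42 tags, Atp5k, a subunit of ATP synthase, had 29, and Pknox2, a homeobox gene, had 21, again with none in the other organs. Of these, Dut kept 6 and Atp5k 9 tags when peaks of 1 position were left out, and Clcn2 kept 30.

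In kidney, a member at the start of Clcn2 that is also near Polr2h had 10 tags against 2 in brain, and 2 members at the end of Ripor1 had 17 and 25 against at most 4 in any other organ. Without peaks of 1 position, the Ripor1 pairs kept 0 and 8 kidney tags. In liver, Slc39a13, a zinc transporter, had 12 tags against 6 in brain, 12 in kidney and none in lung, and 2 members at Snrpd1, a core protein of the spliceosome, had 11 tags each against 8 in brain and 12 in lung. With all listed peaks counted, the liver members were therefore higher only after scaling to 1,000,000 listed tags. Slc39a13 then stood at 22.8 in liver and 7.34 in kidney, and Snrpd1 at 20.9 in liver and 17.4 in lung. Without peaks of 1 position, Slc39a13 kept 12 tags in liver and 10 in kidney. Both Snrpd1 members then kept 9 in liver, 6 in brain and 0 in lung.

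Of the 89 members without organ tags, those with most tags in the deep library were at Rtkn2 (92 tags), Synpo (86), Cldn20 (77), Tox4 (74) and Ptpn5 (72). Synpo encodes an actin-binding protein of podocytes and dendritic spines, and Ptpn5 a neuronal tyrosine phosphatase. The library of 270,000 cells held 3 tags at Rtkn2, 8 at Synpo and 2 at Tox4, and none at Cldn20 and Ptpn5. The members at Cldn20, Tox4 and Ptpn5 lay 157 to 413 bp beyond the end of the gene.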

How the data were processed

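CTCF ChIP-exo 5.0 libraries of 4 mouse organs and a liver cell titration were used, with 1 library per condition. The authors aligned paired reads to mm10, kept unique alignments and removed PCR duplicates. BWA 0.7.9a and bcl2fastq 2.16 appear in the submitters' processing notes. The authors deposited, per strand, peaks 21 bp wide and the tag count of each peak, without normalization and with at least 2 tags listed per peak. A site holding single tags only is therefore listed at 0.

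From these counts, + peaks were matched to - peaks 10 to 80 bp downstream, the largest summed tags first and each peak used once. Genes came from the RefSeq table of GRCm38.p6, which shares mm10 coordinates and gives no strand. Strand was taken by gene ID from the RefSeq promoter table for 16457 of 20665 autosomal protein-coding genes (79.6%). A pair was called with tags in another library where listed peaks centred within 100 bp of the pair's centre held any tags. The same windows moved by 5 kb served as background. Shares carry 95% Wilson intervals and differences Newcombe intervals, which cover counting error only. No test across samples was possible with 1 library per condition. Pairing and window counts were checked on simulated peaks.

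The members and gene lists were chosen with earlier results of these data known. Lists of gene families were set by symbol, after which kinases, binding proteins and pseudogenes that shared a prefix were taken out. Genes that share only a symbol prefix with a complex may remain, such as Ndufa4l2 on the complex I list. The named members were the 10 best by mean rank over the 4 organs, the 5 with most tags and no organ peak, for each organ the 3, of 10 or more tags, that most exceeded the next organ per listed tag (0.5 tag added), and the member with most tags in each list. The alternatives were the window, the tags required, the distance to genes, peaks of 1 position, dense bins and the counting of neighbours. Python 3.11.15, numpy 2.4.6, pandas 2.3.3 and scipy 1.17.1 were used.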

Additional observations from a re-analysis of the deposited data

Results flagged for a closer look

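The library of 27,000 liver cells was outside the main comparison. It held tags at 54 of the 1847 gene-end pairs, which is 2.92% (95% Wilson interval 2.25 to 3.8%), against 4 of the same windows moved by 5 kb (0.217%). The library listed 35594 tags in all, and the share of members was 0.326 percentage points below that of the other pairs (interval -1.03 to 0.565 points).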

How the results depend on the processing

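The difference between gene-end pairs and other pairs stayed above 0 in every organ under every alternative. Shares and differences without the dense bins moved by less than their intervals. Counting tags within 50 bp on each side gave shares of 81.8% in brain, 67.9% in lung, 55.9% in kidney, 36.8% in liver, 20.7% in all 4 organs and 59.9% in the 270,000 cells, with differences of 20.4 points in brain, 11.8 in liver, 11.4 in all 4 organs and 9.99 in the 270,000 cells. Requiring at least 5 tags gave 75.3, 67.1, 44.5, 12.1, 7.96 and 46.5% in the same order, with differences of 24.3 points in brain, 3.9 in liver and 4.16 in all 4 organs. Leaving out peaks of 1 position gave 79.6, 55.1, 44, 40.1, 17 and 62%, with differences of 23.3 points in brain and 9.74 in all 4 organs.

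Limiting members to 250 bp from a gene gave 90.7% in brain, 81.8% in lung, 72% in kidney, 52.8% in liver and 37.1% in all 4 organs, with differences of 20.5, 24.5, 21.7, 19.4 and 20.2 points, and starts minus ends of 29 points. Widening the limit to 1000 bp gave 86, 75.9, 65.5, 45.7 and 30%, with differences of 16.5, 19.3, 15.8, 12.7 and 13.4 points, and starts minus ends of 16.2 points. Pairs of 40 to 99 tags gave 36% in all 4 organs and 76.2% in the 270,000 cells, differences of 16.8 points in brain, 19.4 in lung and 13.6 in liver, a motif share of 59.1% and starts minus ends of 27.6 points. Against other pairs over 10 kb from every gene, the differences were 23.2, 27.3, 23.3, 19.6, 19.5 and 17.6 points in brain, lung, kidney, liver, all 4 organs and the 270,000 cells. The longer motif gave 27%.

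Alternatives added after the data were seen dealt with neighbours. With 1 pair per locus, the shares were 84.8, 74.6, 64.8, 45, 29.4 and 68.8% in the order above, the differences 21.7 points in brain, 23.8 in lung, 20.8 in kidney and, for the 270,000 cells, 15.5, and the motif share 50.7%. With no stronger pair within 100 bp they were 83.5, 74, 64.3, 44.3, 29.3 and 66.1%, with differences of 23.9, 26.4, 23.4 and 19.1 points in the 4 organs and 18.9 in the 270,000 cells, and a motif share of 52.5%. With no pair of 100 or more tags within 100 bp, the differences were 21.1 points in brain, 24.2 in lung, 20.9 in kidney, 19.2 in all 4 organs and 15.9 in the 270,000 cells, where the share was 70.9%. The cause of these shifts was not tested. No paired analysis was possible because each condition had 1 library. Precision rests on the listed tags, and the median member had 0 tags in liver and in the 27,000 cells.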

Other observations

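The 2 strands of a site were not equally spaced in all libraries. With 1 member counted per locus, both strands held a peak within 50 bp of the centre at 561 loci in brain, 304 in lung, 72 in liver and 173 in kidney. The strongest - peak lay a median of 23 bp downstream of the strongest + peak in brain, 24 bp in lung, 24 bp in kidney and 32.5 bp in liver, against 44 bp at 171 loci in the library of 270,000 liver cells. The - peak lay downstream at 77.9% of these loci in brain and at 95.3% in the library of 270,000 cells. The other pairs gave medians of 19 bp in brain and 43 bp in the library of 270,000 cells, so the values of the gene-end loci were not particular to them.

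Where exactly 1 organ lacked tags, which was so for 639 members, that organ was liver for 417, kidney for 131, lung for 70 and brain for 21. Where exactly 1 organ held tags, which was so for 134 members, it was brain for 73, lung for 33, kidney for 19 and liver for 9. Listed tags numbered 1635582 in kidney, 1032833 in brain, 691479 in lung and 527038 in liver. Of the kidney peaks, 91.5% had 1 position. Whether depth shaped this order was not tested.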
